A study of Mus musculus with 17 samples.

Results

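Dendritic cells take up antigen in tissues, carry it to lymph nodes and present it to T cells. Conventional type 1 dendritic cells (cDC1) are specialised in presenting antigen to CD8+ T cells and depend on the transcription factor Batf3, conventional type 2 cells (cDC2) mainly serve CD4+ T cells, and plasmacytoid dendritic cells (pDC) are known for making type I interferon. Tyk2 is a Janus kinase that transmits signals of type I interferons, IL12 and IL23, cytokines that dendritic cells respond to or make. The genes followed here are 10 genes of this lineage, chosen by name from the 55421 genes that were counted. They are Itgax, Zbtb46 and Flt3 for dendritic cells at large, Xcr1, Clec9a and Batf3 for cDC1, Cd209a for a monocyte-related and cDC2-type population, Siglech for pDC, and Ccr7 and Fscn1 for mature, migrating cells. All 10 identifiers were found in both count tables.

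The RNA came from colorectal tumors of C57BL/6 mice that had received azoxymethane, a mutagen, and then cycles of dextran sulfate sodium, which inflames the colon. The groups were 3 libraries of Tyk2Δ/Δ mice (labelled Tyk2KO), 3 of Tyk2+/+ mice (Tyk2wt), 4 of Tyk2ΔIEC mice (Tyk2DIEC) and 7 of Tyk2fl/fl mice (Tyk2fl). Tyk2Δ/Δ mice carry a germline deletion made with a CMV-cre deleter strain, and the Tyk2+/+ mice came from the same crosses. Tyk2ΔIEC mice carry the floxed alleles and Villin-cre, which is active in intestinal epithelium, while Tyk2fl/fl mice carry the floxed alleles without cre. Age and sex are not given in the sources used here. The label protocol speaks of single tumors and the legends of the study of pooled tumors, and nothing says which libraries came from separate mice, so p-values measure the spread between these libraries.

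Totals of counts on genes were 19922606 to 21707373 in Tyk2Δ/Δ, 19789347 to 21318077 in Tyk2+/+, 19129696 to 20334948 in Tyk2ΔIEC and 29777763 to 35427965 in Tyk2fl/fl libraries. Some features of the libraries moved with results given below. Tyk2fl/fl replicates 1, 2 and 3 held 40656 to 45446 counts of Xist, the RNA of the inactive X chromosome, and the other 14 libraries at most 106. The summed level of 9 B cell genes was 1.44 to 2.08 CPM, the usual depth-scaled count, taken relative to the TMM-scaled library total, in Tyk2Δ/Δ and 5.19 to 67.6 CPM in Tyk2+/+ tumors, with the highest value in Tyk2+/+ replicate 3. The summed level of 6 smooth muscle genes was 144.5 to 1286 CPM in Tyk2ΔIEC and 137.5 to 673.2 CPM in Tyk2fl/fl tumors, with the highest value in Tyk2ΔIEC replicate 1. The level of Tyk2 itself was 58.5 ± 0.51 CPM in Tyk2Δ/Δ, 56.4 ± 1.2 in Tyk2+/+, 53.4 ± 1.7 in Tyk2ΔIEC and 49.9 ± 3.8 in Tyk2fl/fl tumors (SD, n = 3, 3, 4 and 7), and counts of the whole gene do not check a deletion that leaves most of the transcript in place.

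The sequences directly before the transcription start of Xcr1, Clec9a and Fscn1 are shown because the first pair had the lowest fold changes of the cDC1 genes in Tyk2Δ/Δ tumors and Fscn1 was the member that passed the test in Tyk2ΔIEC tumors. They come from RefSeq on GRCm38.p6, are written 5′ to 3′ on the strand of the gene and hold the 250 bases before the start. They cover chr9:123862030-123862279 (minus strand) for Xcr1, chr6:129408612-129408861 (plus strand) for Clec9a and chr5:142960105-142960354 (plus strand) for Fscn1. Capitals mark matches to the motifs listed after the sequences.
Xcr1: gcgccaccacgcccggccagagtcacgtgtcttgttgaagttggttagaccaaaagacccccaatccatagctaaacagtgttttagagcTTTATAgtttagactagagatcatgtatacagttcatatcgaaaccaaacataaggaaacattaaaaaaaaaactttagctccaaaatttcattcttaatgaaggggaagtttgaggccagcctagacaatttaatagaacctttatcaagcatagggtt
Clec9a: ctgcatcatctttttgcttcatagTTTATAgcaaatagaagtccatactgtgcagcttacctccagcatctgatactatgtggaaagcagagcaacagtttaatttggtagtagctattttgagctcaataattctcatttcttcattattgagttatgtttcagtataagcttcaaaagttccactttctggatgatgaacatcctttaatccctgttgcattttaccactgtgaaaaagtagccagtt
Fscn1: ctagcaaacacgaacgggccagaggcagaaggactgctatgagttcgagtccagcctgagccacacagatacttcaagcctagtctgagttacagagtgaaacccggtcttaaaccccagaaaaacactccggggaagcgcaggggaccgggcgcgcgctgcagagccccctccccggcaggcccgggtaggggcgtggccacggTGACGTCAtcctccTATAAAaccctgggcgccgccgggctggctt

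The motifs searched on both strands were TGANTCA, the AP-1 element bound by Batf proteins and their Jun partners, GAAANNGAA, a core of interferon-stimulated response elements, GAGGAAGT, a PU.1-type element, and, added after the sequences had been seen, TGACGTCA, the cAMP response element, and TATAAA, the TATA box. TGANTCA and TGACGTCA read the same on both strands, and none of the matches overlapped another. Fscn1 held the cAMP response element with its first base at position -45 and a TATA box at position -31, counted from the start. Among all 32851 promoters listed, 1.55% held TGACGTCA and 12.4% held TATAAA within the same 250 bases. Xcr1 and Clec9a held a TATA match only on the opposite strand, at -160 and -226. TGANTCA stood before Itgax at -56 and before Zbtb46 at -61, and 6.75% of all promoters held it. None of the 9 members in the table held GAAANNGAA or GAGGAAGT, found in 7.13% and 2.44% of all promoters. Ccr7 had no entry. A match is a description of letters and says nothing on binding.

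All members were detected in tumors, most of them at low levels. Compared per kilobase of exon (RPKM, CPM over exon length), the mean over the 17 libraries was highest for Fscn1 (13.7 RPKM) and Itgax (3.59 RPKM), followed by Batf3 (1.30 RPKM) and Ccr7 (1.06 RPKM). In Tyk2+/+ tumors alone Ccr7 (1.495 RPKM) lay above Batf3 (1.31 RPKM). Zbtb46, Clec9a, Flt3, Cd209a, Xcr1 and Siglech lay between 0.245 and 0.0985 RPKM. Xcr1, Clec9a, Flt3, Siglech and Cd209a rested on few reads, with at most 48 in any library. For comparison, 6 epithelial genes summed to 6244 to 10220 CPM. In such bulk samples fewer cells of a type and less RNA per cell cannot be told apart.

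**Figure D1:**
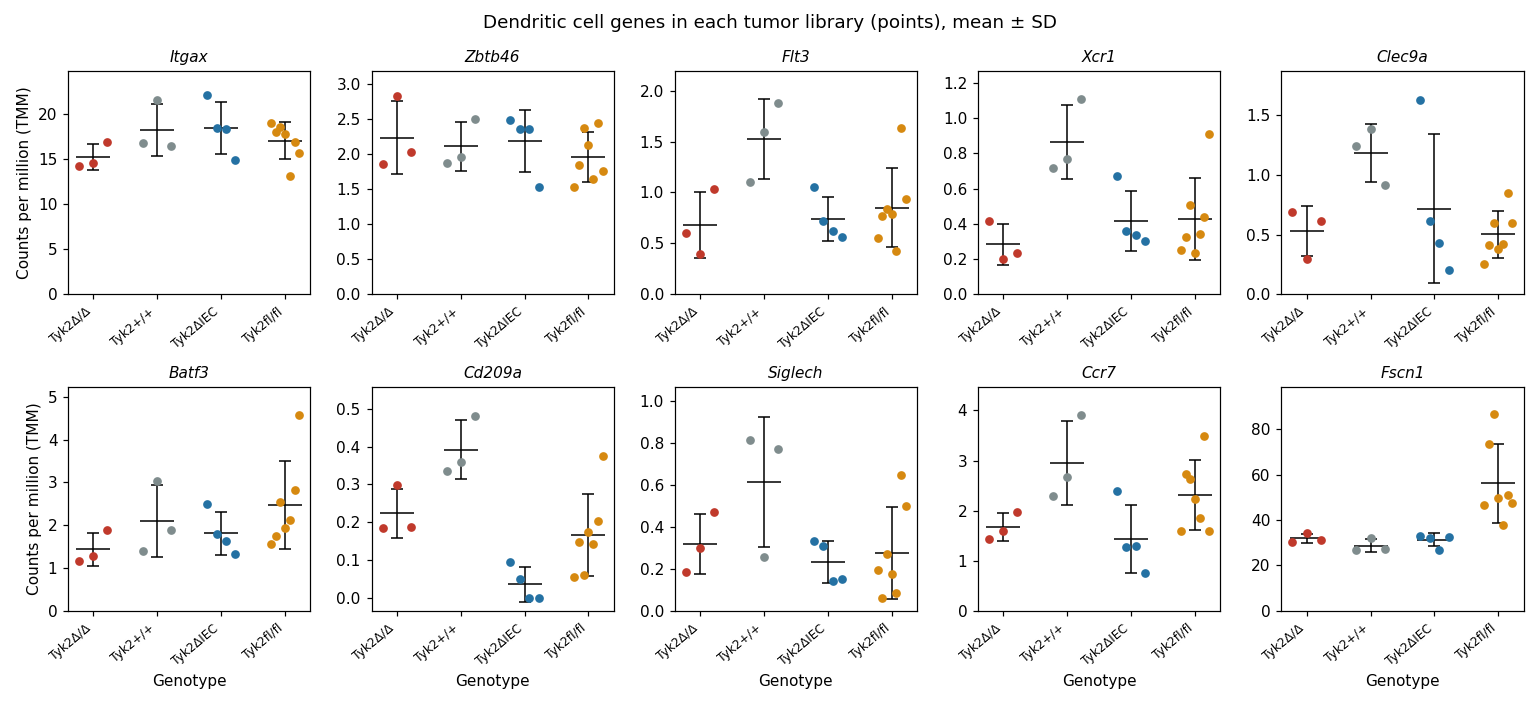
Level of each dendritic cell gene in CPM (y axis, TMM-scaled, linear from 0, or from just below 0 for Cd209a, whose SD crosses it) by genotype (x axis), with 1 point a library and the mean ± SD in black. Xcr1, Clec9a, Flt3, Ccr7 and Cd209a lie lower in all 3 Tyk2Δ/Δ than in all 3 Tyk2+/+ libraries, and Fscn1 lies higher in the 7 Tyk2fl/fl libraries (37.9 to 86.5 CPM) than in all others.

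Germline loss of Tyk2 was compared with wild type to ask how tumors differ when all cells, dendritic cells included, lack the kinase. None of the 8 members that could be tested passed at an adjusted p under 0.05 in edgeR's quasi-likelihood test, higher or lower. The same count was 0 with DESeq2, and 4 members, Xcr1, Clec9a, Flt3 and Ccr7, had an unadjusted p under 0.05, all lower. Over all 16179 genes tested 0.668% passed as higher and 2.13% as lower, and 22.8% had an unadjusted p under 0.05. The values of both groups did not overlap for 4 of 9 members, the same ones, while 28.0% of the 17252 genes kept over all 17 libraries did not overlap between these groups.

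Xcr1 encodes the receptor by which cDC1 follow the chemokine Xcl1. It had 9, 4 and 5 counts in Tyk2Δ/Δ tumors, against 15, 15 and 23 counts in Tyk2+/+ tumors. All 3 Tyk2Δ/Δ libraries were below the lowest Tyk2+/+ library, and the gene passed the filter of 10 counts through the Tyk2+/+ libraries only. The levels were 0.283 ± 0.117 and 0.866 ± 0.211 CPM (SD, n = 3 each), a log2 fold change of -1.59 (SE 0.38) with an adjusted p of 0.0696 by edgeR.

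Clec9a, the receptor with which cDC1 recognise dead cells, had 15, 6 and 13 counts in Tyk2Δ/Δ tumors, against 26, 27 and 19 counts in Tyk2+/+ tumors. The groups did not overlap, with a log2 fold change of -1.13 (SE 0.35) and an adjusted p of 0.118 by edgeR. Batf3, needed for the development of cDC1, had 25, 26 and 40 counts in Tyk2Δ/Δ tumors, against 29, 59 and 39 counts in Tyk2+/+ tumors. Here the groups overlapped, with a log2 fold change of -0.54 (SE 0.34) and an adjusted p of 0.379 by edgeR.

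Flt3, the growth factor receptor that dendritic cell precursors depend on, had 13, 8 and 22 counts in Tyk2Δ/Δ tumors, against 23, 31 and 39 counts in Tyk2+/+ tumors. The groups were 1 count apart, with a log2 fold change of -1.16 (SE 0.38) and an adjusted p of 0.127 by edgeR. Itgax, which encodes CD11c and is also made by macrophages, had 307, 293 and 359 counts in Tyk2Δ/Δ tumors, against 350, 420 and 341 counts in Tyk2+/+ tumors. Its groups overlapped, with a log2 fold change of -0.27 (SE 0.13) and an adjusted p of 0.275 by edgeR. Zbtb46, a transcription factor of conventional dendritic cells that endothelial cells also express, had 40, 57 and 43 counts in Tyk2Δ/Δ tumors, against 39, 38 and 52 counts in Tyk2+/+ tumors. Its groups overlapped almost fully, with a log2 fold change of 0.07 (SE 0.24).

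Ccr7, the receptor that guides mature dendritic cells and naive T cells to lymphoid tissue, had 31, 32 and 42 counts in Tyk2Δ/Δ tumors, against 48, 52 and 81 counts in Tyk2+/+ tumors. The groups did not overlap, with a log2 fold change of -0.83 (SE 0.26) and an adjusted p of 0.120 by edgeR. The highest library, Tyk2+/+ replicate 3, was also the one with the most B cell RNA, a lineage that expresses Ccr7, and the part of B cells in this value was not tested. Fscn1 encodes fascin, which bundles actin in the protrusions of mature dendritic cells and is also made by other motile cells. It had 653, 687 and 669 counts in Tyk2Δ/Δ tumors, against 561, 622 and 568 counts in Tyk2+/+ tumors. On the scale of CPM these ranges overlapped, and the log2 fold change was 0.15 (SE 0.09) with an adjusted p of 0.376 by edgeR.

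Siglech and Cd209a stayed under the count filter. Siglech, a surface lectin of mouse pDC, had 4, 6 and 10 counts in Tyk2Δ/Δ tumors, against 17, 5 and 16 counts in Tyk2+/+ tumors, and the groups overlapped. Cd209a, a mouse relative of DC-SIGN, had 4, 6 and 4 counts in Tyk2Δ/Δ tumors, against 7, 7 and 10 counts in Tyk2+/+ tumors, without overlap. Without a filter their log2 fold changes were -0.95 and -0.80, with adjusted p-values of 0.417 and 0.519 by edgeR. Over all 10 members the unfiltered median was -0.82, against -0.03 for all genes with a count. It was -0.69 over the 8 tested members and -0.26 over those kept by the stricter filter of 30 counts.

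**Figure D2:**
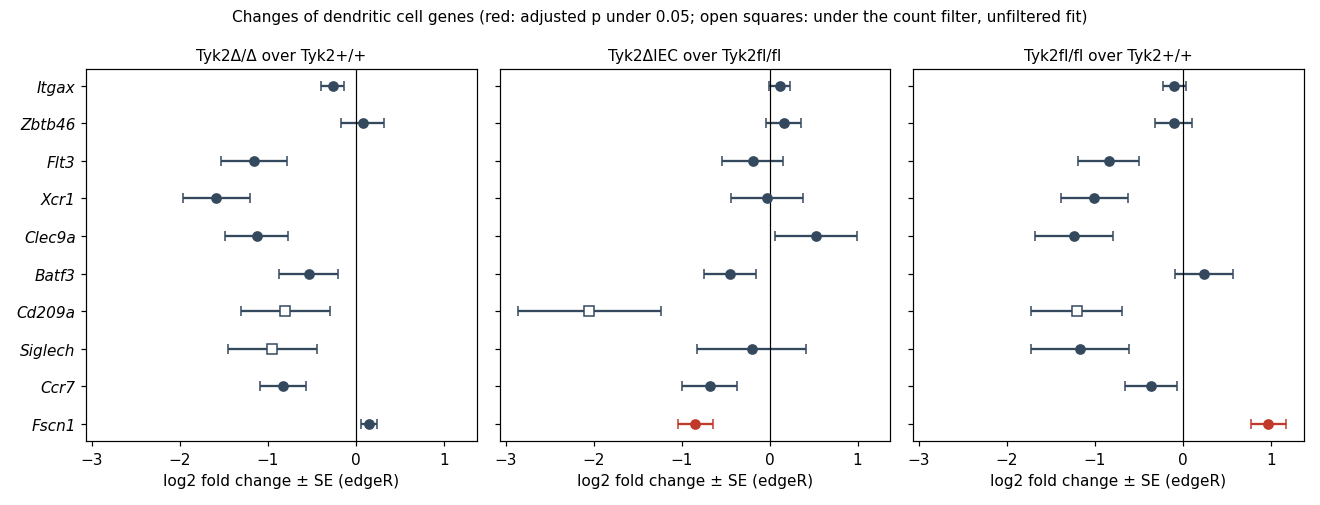
Log2 fold change of each member with its SE (x axis, edgeR) in Tyk2Δ/Δ over Tyk2+/+, Tyk2ΔIEC over Tyk2fl/fl and Tyk2fl/fl over Tyk2+/+ tumors, members down the page, with red for an adjusted p under 0.05 and open squares for unfiltered values of members under the count filter. The square of Cd209a in the second comparison rests on 2 libraries at 0 counts and depends on the prior count of the fit. Red stands only at Fscn1, at -0.84 in the second and 0.97 in the third comparison.

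The general leukocyte marker moved in the same direction. Ptprc, which encodes CD45 on all leukocytes, was 18.9 ± 4.2 CPM in Tyk2Δ/Δ and 40.2 ± 5.8 CPM in Tyk2+/+ tumors (SD, n = 3 each), a log2 fold change of -1.10 (SE 0.17) with an adjusted p of 0.0172 by edgeR. The adjusted p ranged between 0.0135 and 0.0848 when 1 library was left out, and the call was lost without Tyk2Δ/Δ replicate 1 or 2 or Tyk2+/+ replicate 3. The paper reports unaltered numbers of CD45+ cells in the stroma of Tyk2Δ/Δ and Tyk2ΔIEC tumors. That is a count of cells, and the Ptprc RNA level given here is an unlike measure that does not count leukocytes.

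Set against Ptprc in the same library, the members differed from each other. This is given as a description, without a test. Since Ptprc was lower in Tyk2Δ/Δ tumors, a gene of unchanged level is higher as a percent of it. Tyk2, with a log2 fold change of 0.05, was 319.5 ± 61.2% of Ptprc in Tyk2Δ/Δ and 141.9 ± 16.3% in Tyk2+/+ tumors, without overlap. A higher percent alone thus does not show a gain among leukocytes. The share of all genes without overlap on this scale was not counted, so a lack of overlap does not set a member apart. Xcr1 was 1.59 ± 0.88% of the Ptprc level in Tyk2Δ/Δ and 2.13 ± 0.21% in Tyk2+/+ tumors, Clec9a 2.89 ± 1.31% and 3.03 ± 0.95%, and Flt3 3.49 ± 1.03% and 3.77 ± 0.68%, in this order of genotypes (SD, n = 3 each). These ranges overlapped between the genotypes for each of the 3 genes. Ccr7 was 8.90 ± 0.55% of Ptprc in Tyk2Δ/Δ and 7.26 ± 1.02% in Tyk2+/+ tumors, with 8.33% as the lowest and 8.32% as the highest value. Itgax was 82.0 ± 9.4% of Ptprc in Tyk2Δ/Δ and 46.3 ± 11.6% in Tyk2+/+ tumors, and Zbtb46 was 12.3 ± 4.2% and 5.23 ± 0.12%, both without overlap. Fscn1 was 174.5 ± 36.9% of Ptprc in Tyk2Δ/Δ and 72.6 ± 13.9% in Tyk2+/+ tumors, also without overlap. The ranges overlapped for Batf3 (7.60 ± 0.37% in Tyk2Δ/Δ and 5.32 ± 2.47% in Tyk2+/+ tumors), Siglech (1.64 ± 0.43% and 1.52 ± 0.77%) and Cd209a (1.24 ± 0.49% and 0.970 ± 0.056%).

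**Figure D3:**
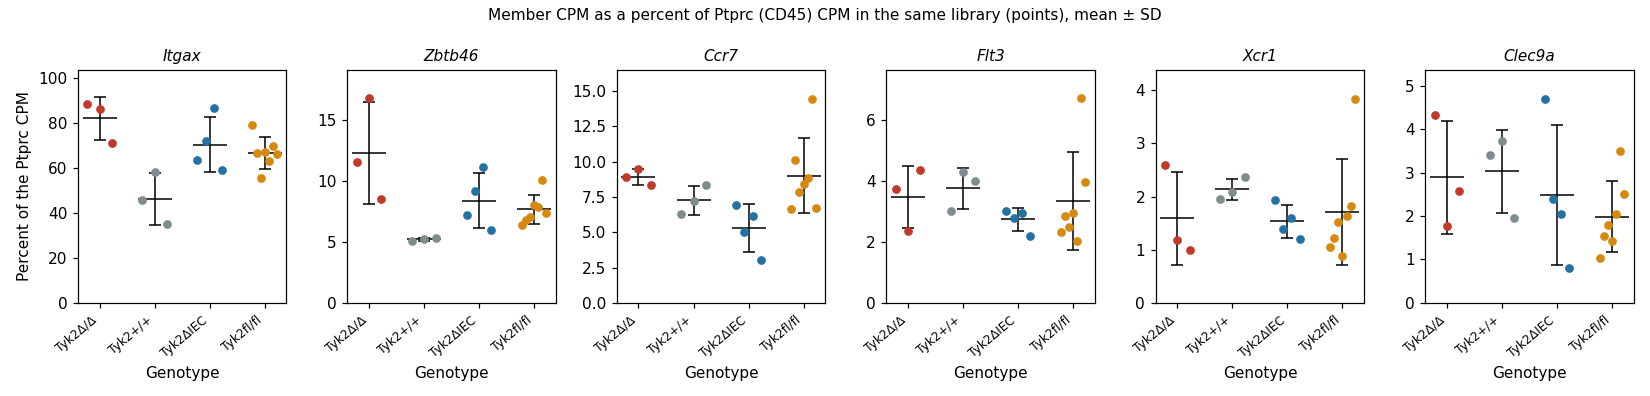
Level of 6 members as a percent of the Ptprc level in the same library (y axis, linear from 0) by genotype (x axis), with 1 point a library and the mean ± SD in black. Itgax and Zbtb46 lie higher in Tyk2Δ/Δ (82.0% and 12.3%) than in Tyk2+/+ libraries (46.3% and 5.23%), and Flt3, Xcr1 and Clec9a overlap between these genotypes. Ptprc itself is lower in Tyk2Δ/Δ libraries, which raises the percent of a gene of unchanged level.

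Epithelial loss of Tyk2 was compared with the floxed controls to ask what changes in tumors whose immune cells keep the kinase. Of 9 members tested 1 passed, Fscn1, which was lower in Tyk2ΔIEC tumors. Over all 17668 genes 10.2% passed as higher and 9.71% as lower. Fscn1 was also the only 1 of 9 members whose groups did not overlap, against 15.7% of all genes.

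Fscn1 had 694, 632, 560 and 640 counts in Tyk2ΔIEC tumors, against 1333 to 2891 counts (median 1671) in the 7 more deeply sequenced Tyk2fl/fl libraries. On the scale of CPM it reached 26.97 to 33.19 in Tyk2ΔIEC and 37.88 to 86.53 in Tyk2fl/fl tumors, so the groups were apart after scaling too. The means were 31.2 ± 2.9 CPM and 56.1 ± 17.3 CPM (SD, n = 4 and 7), a log2 fold change of -0.84 (SE 0.20) with an adjusted p of 0.0128 by edgeR. The highest values, 73.6 and 86.5 CPM, were those of Tyk2fl/fl replicates 2 and 3, both rich in Xist RNA. Without the 3 libraries rich in Xist the log2 fold change was -0.59 (SE 0.11) with an adjusted p of 0.00682, and leaving out any single library left the adjusted p between 0.00758 and 0.0479.

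Ccr7 had 50, 25, 27 and 15 counts in Tyk2ΔIEC tumors, against 51 to 103 counts (median 77) in Tyk2fl/fl tumors. Its levels were 1.43 ± 0.69 and 2.31 ± 0.70 CPM (SD, n = 4 and 7) and overlapped through Tyk2ΔIEC replicate 1, with a log2 fold change of -0.68 (SE 0.31) and an adjusted p of 0.143 by edgeR. Without that replicate, the library with the most smooth muscle RNA, the log2 fold change was -1.05 and the adjusted p 0.0395. Whether the muscle content has a part in this was not tested.

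The cDC1 genes overlapped between the groups. Xcr1 had 14, 7, 7 and 6 counts in Tyk2ΔIEC tumors, against 8 to 29 counts (median 12) in Tyk2fl/fl tumors, and Clec9a had 34, 12, 9 and 4 counts, against 9 to 25 counts (median 15). Their log2 fold changes were -0.03 (SE 0.41) and 0.53 (SE 0.47). Clec9a spread widely within Tyk2ΔIEC tumors, and without replicate 1 its log2 fold change was -0.26. Batf3 had 52, 35, 34 and 26 counts in Tyk2ΔIEC tumors, against 56 to 146 counts (median 75) in Tyk2fl/fl tumors, with a log2 fold change of -0.45 (SE 0.30) and an adjusted p of 0.314 by edgeR.

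The remaining members did not pass. Flt3 (-0.19, SE 0.35), Itgax (0.12, SE 0.12), Zbtb46 (0.16, SE 0.19) and Siglech (-0.20, SE 0.62) had log2 fold changes below or equal to their standard errors. Cd209a had 2, 1, 0 and 0 counts in Tyk2ΔIEC tumors, against 2 to 12 counts (median 5) in Tyk2fl/fl tumors. A count of 0 in replicates 3 and 4 allows a level of up to 3 counts, or 0.1445 and 0.1524 CPM, with counting error only, and the gene was under the filter. Ptprc was 26.7 ± 5.7 CPM in Tyk2ΔIEC and 25.7 ± 4.0 CPM in Tyk2fl/fl tumors (SD, n = 4 and 7), with an adjusted p of 0.816 by edgeR.

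The difference between both changes was tested in 1 fit of all 17 libraries. Of 9 members Fscn1 passed, with a log2 difference of 1.00 (SE 0.29, adjusted p = 0.0426 by edgeR), where 2.73% of 17252 genes passed as higher and 5.23% as lower. The call was lost when counts were scaled by library totals (adjusted p 0.0504) and with limma voom (adjusted p 0.0970), and leaving out 1 library moved the adjusted p between 0.0194 and 0.1005, with the highest value without Tyk2+/+ replicate 3. Xcr1 and Clec9a had log2 differences of -1.56 (SE 0.64) and -1.66 (SE 0.71), with adjusted p-values of 0.145 and 0.162 by edgeR. Xcr1 reached an adjusted p of 0.0360 without Tyk2fl/fl replicate 7, its highest Tyk2fl/fl library.

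Both control groups carry functional Tyk2. They stand in separate count tables, so genotype and anything else that differs between the tables cannot be told apart, and the Tyk2fl/fl libraries were sequenced more deeply. In Tyk2fl/fl over Tyk2+/+ tumors 1 of 9 members passed, Fscn1, with a log2 fold change of 0.97 (SE 0.20) and an adjusted p of 0.00659 by edgeR, or 0.0513 without Tyk2+/+ replicate 3. With the Tyk2fl/fl libraries thinned to the depth of the others it was 0.96 (SE 0.20, adjusted p 0.00769). Over 17252 genes 5.49% passed as higher and 7.37% as lower. Fscn1 was 28.7 ± 2.8 CPM in Tyk2+/+ tumors (SD, n = 3), with a range that overlapped those of both mutant groups, so the Tyk2fl/fl libraries stood above the other 3 genotypes.

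Clec9a, Xcr1, Flt3 and Siglech were lower in Tyk2fl/fl than in Tyk2+/+ tumors at an unadjusted p under 0.05 and failed the adjustment, where 28.8% of all genes had such a p. Their log2 fold changes were -1.24 (SE 0.44), -1.01 (SE 0.38), -0.85 (SE 0.35) and -1.17 (SE 0.55), with adjusted p-values of 0.0752, 0.0881, 0.116 and 0.173 by edgeR. Xcr1 passed with limma voom (adjusted p 0.0460), with Tyk2fl/fl libraries thinned to the depth of the others (0.0472) and without Tyk2fl/fl replicate 7 (0.0140), and Flt3 passed without Tyk2fl/fl replicate 6 (0.0387). The groups did not overlap for Clec9a and Fscn1, 2 of 9 members, against 13.0% of all genes. All 9 B cell genes passed as lower in Tyk2fl/fl tumors, with sums of 1.48 to 12.8 CPM in Tyk2fl/fl and 5.19 to 67.6 CPM in Tyk2+/+ tumors, and none of the 9 passed without Tyk2+/+ replicate 3. Their part in these results was not tested. Ptprc was lower in Tyk2fl/fl tumors too, with a log2 fold change of -0.65 (SE 0.16) and an adjusted p of 0.0140 by edgeR, or 0.127 without Tyk2+/+ replicate 3.

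Across the 4 genotypes the order of the mean levels placed Tyk2+/+ tumors highest for 6 members, Xcr1, Clec9a, Flt3, Ccr7, Siglech and Cd209a. The lowest mean was in Tyk2Δ/Δ tumors for Xcr1, Flt3, Batf3 and Itgax, in Tyk2ΔIEC tumors for Ccr7, Siglech and Cd209a, in Tyk2fl/fl tumors for Clec9a and Zbtb46, and in Tyk2+/+ tumors for Fscn1. Neighbours in these orders overlapped in their ranges, with the exceptions of Fscn1, where Tyk2fl/fl lay above the rest, and Cd209a, where Tyk2+/+ lay above Tyk2Δ/Δ. The gap from Tyk2+/+ to the next genotype was within the larger SD for Clec9a, Ccr7 and Siglech, and above it for Xcr1, Flt3 and Cd209a. Ptprc was also highest in Tyk2+/+ tumors (40.2 CPM, against 26.7 CPM in Tyk2ΔIEC tumors). The share of all genes with their highest mean in Tyk2+/+ tumors was not counted.

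Other genes of the same programs were described with lists. Of 11 further cDC1 genes tested in Tyk2Δ/Δ tumors 1 fell, Tlr3, a receptor for double-stranded RNA that many other cells also express, with a log2 fold change of -0.43 (SE 0.07, adjusted p = 0.0265 by edgeR). Wdfy4, needed by cDC1 for cross-presentation, was 4.65 ± 0.50 CPM in Tyk2Δ/Δ and 8.13 ± 1.65 CPM in Tyk2+/+ tumors (log2 fold change -0.81, SE 0.19, adjusted p = 0.0643). Itgae, which encodes CD103 and is also found on T cells of the gut epithelium, was 3.77 ± 0.82 and 6.62 ± 0.43 CPM in the same order (-0.81, SE 0.19, adjusted p = 0.0684; SD, n = 3 each). The highest Wdfy4 library, Tyk2+/+ replicate 3 at 9.82 CPM, was also the one with the most B cell RNA. The part of B cells in this value was not tested. The median of the list was -0.23, against 0.004 for all genes tested, of which 2.13% passed as lower. The call on Tlr3 held in 2 of 6 fits with 1 library left out. Calls on this list depended on the filter. Without it Wdfy4 and Itgae passed too (adjusted p 0.0245 and 0.0322 by edgeR), while calls over all genes rose from 453 to 1020.

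Of 10 further pDC genes tested in Tyk2Δ/Δ tumors 2 fell, Bst2 and Irf7, beside 2.13% of all genes, and the list's median was -0.76. Both are induced by interferon in many cell types, and so are not particular to pDC. Bst2, which tethers virus particles, had a log2 fold change of -1.62 (SE 0.11, adjusted p = 0.000846 by edgeR) and passed in all 6 fits with 1 library left out. Irf7, a transcription factor of interferon genes, had -1.54 (SE 0.22, adjusted p = 0.0140) and was lost without Tyk2Δ/Δ replicate 2 (0.0643). Spib, a factor shared by pDC and B cells, was 0.552 ± 0.261 CPM in Tyk2Δ/Δ and 8.09 ± 6.33 CPM in Tyk2+/+ tumors (SD, n = 3 each), beside the B cell sums given above, with an adjusted p of 0.0569 by edgeR. Without a filter Spib (adjusted p 0.00266 by edgeR) and Klk1 (log2 fold change -0.94, adjusted p 0.0151) passed as well.

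None of 10 cDC2 and none of 14 mature dendritic cell genes passed in Tyk2Δ/Δ tumors, with medians of -0.17 and -0.44. Il4i1, Samsn1 and Ccl22, from the mature dendritic cell list, had log2 fold changes of -1.15 (SE 0.37), -0.82 (SE 0.24) and -0.68 (SE 0.22), with adjusted p-values of 0.123, 0.106 and 0.120 by edgeR. Il4i1 spread from 2.445 to 6.163 CPM in Tyk2+/+ tumors. The part of other cells in the levels of these genes was not tested. Irf4, a transcription factor of cDC2 and of lymphocytes, had -0.77 (SE 0.27, adjusted p = 0.148), and Itgam, which encodes CD11b, had -0.37 (SE 0.12, adjusted p = 0.120). Esam, an adhesion molecule shared with endothelium, had 0.30 (SE 0.13, adjusted p = 0.214).

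**Figure D4:**
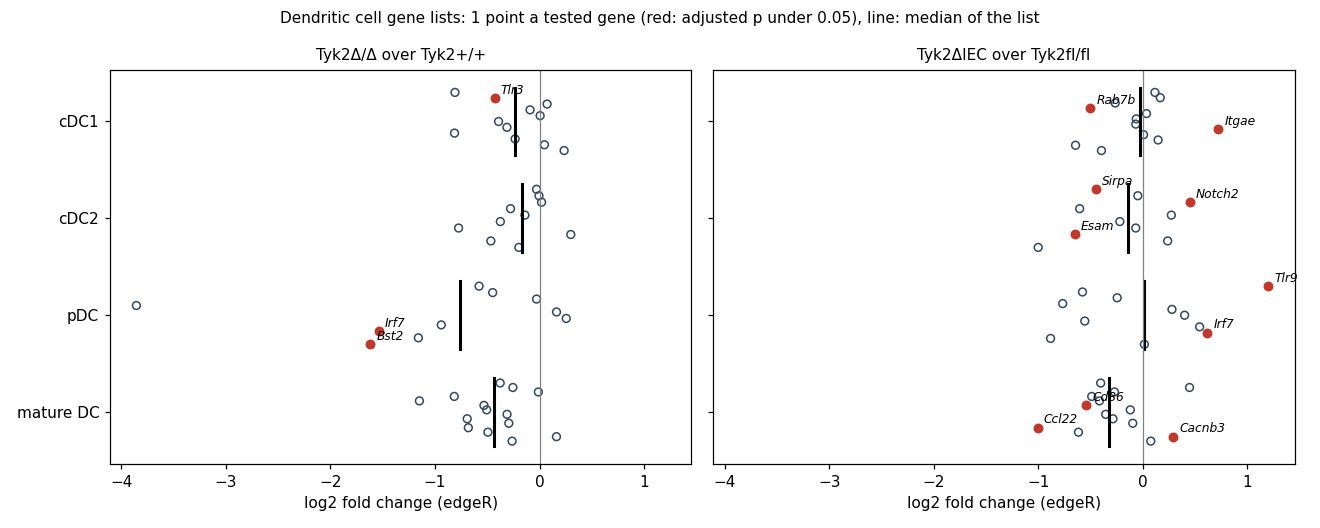
Log2 fold change (x axis, edgeR) of every tested gene of 4 dendritic cell lists other than the members, for Tyk2Δ/Δ over Tyk2+/+ (left) and Tyk2ΔIEC over Tyk2fl/fl tumors (right), with red and a name for an adjusted p under 0.05 and a black line at the median of each list. On the left red points lie below 0 for Tlr3, Irf7 and Bst2, and on the right red points lie on both sides of 0.

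In Tyk2ΔIEC tumors list genes moved in both directions, as did 10.2% (higher) and 9.71% (lower) of all genes tested, and counts of this size are not particular to the lists. Of 12 cDC1 genes 1 rose and 1 fell. Itgae was 7.32 ± 0.87 CPM in Tyk2ΔIEC and 4.44 ± 0.84 CPM in Tyk2fl/fl tumors (SD, n = 4 and 7; log2 fold change 0.72, SE 0.16, adjusted p = 0.0103 by edgeR), and it passed in all 11 fits with 1 library left out. Rab7b, a GTPase of lysosomal transport, fell by 0.50 on the log2 scale (adjusted p = 0.0211) and passed in 9 of those fits. Of 11 pDC genes 2 rose, Irf7 (0.62, SE 0.15, adjusted p = 0.0130) and Tlr9, a receptor for DNA that B cells share (1.20, SE 0.36, adjusted p = 0.0356). Irf7 was lost without the libraries rich in Xist (adjusted p 0.0641) and without Tyk2ΔIEC replicate 4 (0.0505), and Tlr9 was lost in 4 of 11 fits with 1 library left out. Tlr3 (0.17, SE 0.08, adjusted p = 0.172) and Ccr9, a receptor of cells that home to the gut (-0.88, SE 0.34, adjusted p = 0.0888), did not pass. Itgae, Irf7 and Tlr9 were also lower in Tyk2fl/fl than in Tyk2+/+ tumors (-0.58, -0.99 and -1.31, with adjusted p-values of 0.0361, 0.00328 and 0.0320 by edgeR).

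Of 10 cDC2 genes 1 rose and 2 fell in Tyk2ΔIEC tumors. Notch2, a receptor that cDC2 need and that epithelium also expresses, had a log2 fold change of 0.45 (SE 0.10, adjusted p = 0.0111 by edgeR) and passed in 9 of 11 fits with 1 library left out. Esam had -0.65 (SE 0.11, adjusted p = 0.00251) and passed in all 11 fits with 1 library left out. Sirpa, shared with macrophages, had -0.45 (SE 0.14, adjusted p = 0.0431) and passed in 3 of 11. The mean of Esam was 11.3 ± 0.21 CPM in Tyk2ΔIEC and 17.8 ± 2.3 CPM in Tyk2fl/fl tumors, and 13.3 ± 1.8 CPM in Tyk2Δ/Δ and 10.8 ± 0.67 CPM in Tyk2+/+ tumors (SD, n = 4, 7, 3 and 3), so that, as for Fscn1, the highest mean was that of Tyk2fl/fl tumors.

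Of 14 mature dendritic cell genes 1 rose and 2 fell in Tyk2ΔIEC tumors. Ccl22, a chemokine of mature dendritic cells that attracts regulatory T cells, was 2.19 ± 1.19 CPM in Tyk2ΔIEC and 4.41 ± 1.26 CPM in Tyk2fl/fl tumors (SD, n = 4 and 7), a log2 fold change of -1.01 (SE 0.31, adjusted p = 0.0382 by edgeR). Cd86, a costimulatory ligand that macrophages share, had -0.54 (SE 0.16, adjusted p = 0.0307), and Cacnb3, a calcium channel subunit, had 0.29 (SE 0.09, adjusted p = 0.0434). All 3 were lost without the libraries rich in Xist, with adjusted p-values of 0.0759, 0.1041 and 0.0785, and they passed in 4, 7 and 3 of 11 fits with 1 library left out. In the macrophage and monocyte list 2 of 12 genes fell, C1qa (-0.46, SE 0.13, adjusted p = 0.0273) and C1qc (-0.49, SE 0.14, adjusted p = 0.0269). Without the libraries rich in Xist both were lost (0.0593 and 0.0674), and their part in the level of shared genes such as Cd86 was not tested.

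The difference between both changes passed for Itgae (-1.53, SE 0.26, adjusted p = 0.00208 by edgeR), Tlr3 (-0.59, SE 0.12, adjusted p = 0.00723) and Wdfy4 (-0.92, SE 0.26, adjusted p = 0.0378) of 12 cDC1 genes. Over all 17252 genes 2.73% passed as higher and 5.23% as lower. The difference also passed for Bst2 (-1.63, SE 0.26, adjusted p = 0.0013) and Irf7 (-2.15, SE 0.28, adjusted p = 0.000216) of 11 pDC genes and for Esam (0.96, SE 0.17, adjusted p = 0.00255) of 10 cDC2 genes, and for none of 14 mature dendritic cell genes. Wdfy4 was lost in 10 of 17 fits with 1 library left out and without the libraries rich in Xist (adjusted p 0.0691), and the others passed in all 17. Ptprc differed as well (-1.15, SE 0.24, adjusted p = 0.00819), and so did 1 of 9 B cell genes, Blk (-3.30, adjusted p = 0.0112, or 0.0502 without Tyk2+/+ replicate 3).

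The control groups also differed in the dendritic cell lists. In Tyk2fl/fl over Tyk2+/+ tumors, beside 5.49% higher and 7.37% lower over all genes, 3 of 12 cDC1 genes fell (Itgae, Tlr3 and Wdfy4), as did 3 of 11 pDC genes (Irf7, Spib and Tlr9), 2 of 14 mature genes (Il4i1 and Birc3) and, of 10 cDC2 genes, Irf4, while Esam rose by 0.73 on the log2 scale (adjusted p = 0.00168 by edgeR). Without Tyk2+/+ replicate 3 Spib and Esam passed and the other 8 were lost. Of the other lists, Tcf7 and Emcn rose and were also lost without that library.

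Ligands of the members were measured as well. Xcl1, the ligand of Xcr1 made by natural killer and T cells, had 6, 1 and 3 counts in Tyk2Δ/Δ tumors, against 7, 22 and 19 counts in Tyk2+/+ tumors. It stayed under the filter there, and without a filter its log2 fold change was -2.28 (SE 0.59) with an adjusted p of 0.0442 by edgeR. In Tyk2ΔIEC tumors it had 9, 5, 11 and 5 counts, against 3 to 22 counts in Tyk2fl/fl tumors. Flt3l, the ligand of Flt3, had 39, 45 and 64 counts in Tyk2Δ/Δ tumors, against 51, 63 and 88 counts in Tyk2+/+ tumors, with overlap (log2 fold change -0.50, SE 0.28, adjusted p = 0.325), and its log2 fold change was 0.05 (SE 0.14) in Tyk2ΔIEC tumors. The Ccr7 ligand Ccl19 had 0 counts in all but 1 library, a Tyk2+/+ library with 1 count, and Ccl21a had 0 counts in all 17.

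Csf1 and Csf2, growth factors of myeloid cells, and Tnfsf11, a survival factor of dendritic cells, completed the list. Csf1 had log2 fold changes of -0.07 (SE 0.13) in Tyk2Δ/Δ over Tyk2+/+ and -0.20 (SE 0.17) in Tyk2ΔIEC over Tyk2fl/fl tumors. Csf2 had 7 to 9 counts in Tyk2Δ/Δ, 7 to 8 in Tyk2+/+, 3 to 14 in Tyk2ΔIEC and 10 to 19 in Tyk2fl/fl libraries. Tnfsf11 had 17, 29 and 28 counts in Tyk2Δ/Δ tumors, against 49, 35 and 61 counts in Tyk2+/+ tumors, without overlap (log2 fold change -1.01, SE 0.30, adjusted p = 0.107 by edgeR), and -0.67 (SE 0.30, adjusted p = 0.131) in Tyk2ΔIEC over Tyk2fl/fl tumors. None of the ligands passed with the filter.

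Markers of other cells moved with the members in Tyk2Δ/Δ tumors. Of 9 T cell genes 2 fell, Cd3e (-1.58, SE 0.27, adjusted p = 0.0265 by edgeR) and Cd3g (-1.41, SE 0.26, adjusted p = 0.0319), and T cells also express Ccr7. Both calls held in 2 of 6 fits with 1 library left out. The sum of the 9 T cell genes was 147.9 to 165.0 CPM in Tyk2Δ/Δ and 133.2 to 153.2 CPM in Tyk2+/+ tumors, and was mostly Tcf7 and Lef1, which intestinal epithelium and tumors also express. Without this pair, left out after the values had been seen, it was 8.79 to 11.9 CPM in Tyk2Δ/Δ and 18.3 to 27.4 CPM in Tyk2+/+ tumors, without overlap. The sum of 12 macrophage and monocyte genes overlapped, at 489.7 to 634.6 CPM in Tyk2Δ/Δ and 514.8 to 858.0 CPM in Tyk2+/+ tumors. Of 6 smooth muscle genes 5 fell, with a sum of 103.4 to 167.9 CPM in Tyk2Δ/Δ and 228.8 to 412.7 CPM in Tyk2+/+ tumors, namely Acta2 (-0.72, SE 0.12, adjusted p = 0.0231), which passed in 4 of 6 fits with 1 library left out, and Cnn1, Tagln, Des and Actg2, which passed in 2 of 6. All 5 were lost with all 17 libraries in 1 fit. None of 3 B cell, 12 macrophage and monocyte, 7 endothelial and 6 epithelial genes tested passed, with medians of -3.32, -0.35, 0.27 and 0.00. In Tyk2ΔIEC tumors none of the tested B cell, T cell, smooth muscle or epithelial genes passed, and Tek was the 1 of 7 endothelial genes that rose (0.57, SE 0.15, adjusted p = 0.0185, and 0.0632 without the libraries rich in Xist). The part of these cells in the levels of the members was not tested.

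How members varied together among libraries of the same genotype is given as a description. No median over all gene pairs was computed to set it against. Of 36 pairs of the 9 members with enough counts, Pearson's r of log2 CPM after removing group means ranged from -0.07 to 0.75 with a median of 0.41 over the 17 libraries, which differ in depth and tissue composition. The highest were Zbtb46 with Ccr7 (0.75), Flt3 with Ccr7 (0.70), and Clec9a with Ccr7 (0.67), and Xcr1 with Clec9a and Batf3 had 0.63 and 0.66. Fscn1 had an r between -0.07 (with Siglech) and 0.48 (with Itgax) with the other members, and 0.08, 0.14 and 0.06 with Xcr1, Clec9a and Batf3. With markers of other cells, Itgax had an r of 0.80 with the macrophage gene Csf1r and of -0.64 with the epithelial gene Epcam, and Fscn1 had 0.69 and -0.66. Ccr7 had 0.82 with the muscle and fibroblast gene Acta2 and 0.70 with Cd3e.

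By the same measure the 3 genes most like a member among 17252 were Ptpru, S1pr4 and Gdf6 for Zbtb46 (0.82, 0.80 and 0.80), and Gm36235, Arhgap4 and Gm45336 for Flt3 (0.90, 0.88 and 0.88). For the cDC1 genes they were Leprotl1, Fbxw4 and Emc1 for Xcr1 (0.90, 0.87 and 0.87), Gm13889, Fbln7 and Cd4 for Clec9a (0.88, 0.87 and 0.86), and C1ra, Spns3 and Clmp for Batf3 (0.88, 0.88 and 0.86). For the mature genes they were Gdf6, Eno2 and Tns1 for Ccr7 (0.93, 0.92 and 0.91) and A930001C03Rik, Nckap5l and Snx18 for Fscn1 (0.93, 0.92 and 0.92). Cd4 encodes the T helper coreceptor, and with so many genes searched and so few reads for Xcr1, Clec9a and Flt3 these names are a description only.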

How the data were processed

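Directional poly(A) libraries of tumor RNA, 17 in all, were sequenced single-end. The authors aligned reads with STAR 2.6.1a (submitters' processing notes, build GRCm38, where the paper prints GRCh38) and let STAR count reads per gene of Gencode M23. The deposited values are raw counts per gene, with no filter or scaling. Which strand column of STAR was taken is not given in the sources used here. The 17 single-sample tables held the same values as both series tables.

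Symbols, positions and exon lengths came from GENCODE M21 on GRCm38. Low genes were removed by filterByExpr (at least 10 counts, total of 15). TMM factors set the scale, and edgeR 4.0.16 in R 4.3.3 gave the tests (quasi-likelihood F test, two-sided, Benjamini-Hochberg over all genes, threshold 0.05). Tyk2Δ/Δ with Tyk2+/+ and Tyk2ΔIEC with Tyk2fl/fl were fitted separately, and their difference and Tyk2fl/fl over Tyk2+/+ in 1 fit of 17 libraries. Standard errors are the fold change divided by the root of F. CPM and RPKM use TMM over all libraries. Totals lay between 19129696 and 35427965 counts, and at under 50 counts of a gene only large changes can be seen.

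Alternatives were DESeq2 1.42.0, other scalings, no and a stricter filter (30 counts), limma 3.58.1 voom, a fold minimum of 2, the replicate number as a block, all libraries in 1 fit, thinned Tyk2fl/fl libraries, leaving out libraries with over 1000 Xist counts, and leaving out each library. Only the edgeR fits of each deletion with its own controls were tested on simulated counts, not the alternatives or the fit of all libraries. The text names all members and ligands, in each dendritic cell list the 3 genes with the smallest p in Tyk2Δ/Δ and in Tyk2ΔIEC tumors, in other lists up to 3, genes that passed (B cell genes in Tyk2fl/fl tumors as a count), and the 3 genes most like each member with a mean of at least 10 counts, which for Itgax are not reported here. Upstream motifs were searched in the RefSeq promoter table, which held 9 of 10 members. The members and lists were chosen with earlier results of these data known. Same-numbered libraries did not deviate together (r between -0.39 and 0.08), which gives no sign that the numbers pair them. With so few pairs and such small groups it cannot exclude pairing.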

Additional observations from a re-analysis of the deposited data

Results flagged for a closer look

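Of 20 groups of 4 to 7 libraries examined, 6 held a library whose gap to the nearest other exceeded Dixon's critical value. That value is set for about 1 in 20 groups of independent, normally distributed values. The groups examined share libraries and several genes had few counts, so the 6 cannot be set against that rate. Tyk2fl/fl replicate 7 was the highest of its group for Xcr1 (0.908 CPM) and Batf3 (4.57 CPM), and Tyk2fl/fl replicate 6 was the highest for Flt3 (1.63 CPM). Tyk2ΔIEC replicate 1 was the highest of its group for Xcr1 (0.670 CPM). Tyk2ΔIEC replicate 4 was the lowest for Zbtb46 (1.52 CPM), and Tyk2ΔIEC replicate 3 was the lowest for Fscn1 (26.97 CPM).

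The change of Fscn1 differed between both comparisons by 1.00 on the log2 scale (0.998, adjusted p = 0.0426 by edgeR). It was 0.15 in Tyk2Δ/Δ over Tyk2+/+ and -0.84 in Tyk2ΔIEC over Tyk2fl/fl tumors. The Tyk2fl/fl libraries, at 37.9 to 86.5 CPM, lay above all libraries of the other 3 genotypes.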

How the results depend on the processing

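Of the alternatives for single members 692 kept their direction and side of the threshold, 16 were past the threshold only in the reported fit, 6 only under the alternative and 29 changed sign. No member passed in Tyk2Δ/Δ tumors under any alternative. In Tyk2ΔIEC tumors 1 member passed under all settings but a fold minimum of 2 (0 members), and 1 to 2 members with 1 library left out. For the difference between both changes 0 passed with the fold minimum, library totals and limma voom, and 0 to 2 with 1 library left out. For Tyk2fl/fl over Tyk2+/+ 0 passed with the fold minimum, 2 with limma voom, 2 with thinned Tyk2fl/fl libraries, and 0 to 2 with 1 library left out.

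None of the values that changed sign had passed the test. In Tyk2ΔIEC tumors Xcr1 was 0.00972 with library totals and 0.0804 with limma voom, and Siglech was 0.15 with limma voom. The difference for Batf3 was 0.14 without the libraries rich in Xist. With 1 library left out, log2 values ranged from -0.12 to 0.22 for Zbtb46 in Tyk2Δ/Δ tumors, from -0.26 to 0.82 for Clec9a, -0.36 to 0.26 for Xcr1 and -0.42 to 0.0291 for Flt3 in Tyk2ΔIEC tumors, from -0.30 to 0.28 for Batf3, -0.26 to 0.0844 for Zbtb46 and -0.34 to 0.23 for Ccr7 in the difference, and from -0.15 to 0.0514 for Itgax and -0.17 to 0.0507 for Zbtb46 in Tyk2fl/fl over Tyk2+/+ tumors.

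Nothing in the sources used here says that the replicate numbers pair libraries. With the replicate number as a block, 0, 1 and 1 members passed in Tyk2Δ/Δ, in Tyk2ΔIEC and in the difference. In Tyk2ΔIEC tumors Xcr1 was then 0.34, Siglech 0.44 and Itgax -0.0028. Calls over all genes fell to 246, 1181 and 903 in the fit with the replicate block, against 453, 3515 and 1374 without it.

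Over all genes, calls in Tyk2Δ/Δ tumors were 453, and 1250 with DESeq2, 1020 with no filter and 210 with the fold minimum. The fold minimum left 551 of 3515 in Tyk2ΔIEC tumors, 451 of 1374 in the difference and 405 of 2219 in Tyk2fl/fl over Tyk2+/+ tumors. No filter left 868 in the difference and 1453 in Tyk2fl/fl over Tyk2+/+ tumors. With 1 library left out the counts ranged from 114 to 822 in Tyk2Δ/Δ and from 1632 to 3798 in Tyk2ΔIEC tumors, from 584 to 1690 in the difference, and from 345 to 2806 in Tyk2fl/fl over Tyk2+/+ tumors. Upper-quartile scaling split the difference into 734 higher and 757 lower, against 471 and 903, and Tyk2fl/fl over Tyk2+/+ into 1310 and 1023, against 947 and 1272. Library totals split Tyk2Δ/Δ into 156 and 302, against 108 and 345. The cause was not tested. Depth limits Siglech, Cd209a, Xcr1, Clec9a and Flt3, with at most 48 counts in any library.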
